A study of Schizothorax plagiostomus with 18 samples.

Results

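The change in RNA levels at the entry into spawning was compared between testes and ovaries of the snow trout Schizothorax plagiostomus, a seasonally breeding fish of Himalayan rivers. The comparison is a difference of differences: spawning minus pre-spawning testis, minus spawning minus pre-spawning ovary, on the log scale. It uses 12 of the 18 libraries of the series, 3 each from spawning testes, pre-spawning testes, spawning ovaries and pre-spawning ovaries. The other 6, from post-spawning testes and ovaries, are not in the contrast. They enter the fit through the estimate of spread, the scaling and the low-count filter, and they define the gonad classes used further on. The labels name no treatment, genotype or age. They also leave unsaid whether each library is its own fish, and a p-value here reflects variation among libraries, of which some may be technical. Each replicate number is also a season in the labels, so season 1, 2 and 3 each hold 1 library of every group.

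In seasonally breeding fish the testis turns over from dividing germ cells to mature sperm as spawning approaches, while the ovary fills its oocytes with yolk and then matures and sheds them. Both programmes are driven by pituitary gonadotropins and gonadal steroids, and both change which cells make up the organ. In whole gonads, fewer cells of a type and less RNA per cell cannot be told apart. The deposited features are clusters of assembled transcripts, or single transcripts, with no gene names. Each is therefore called by its identifier, without a function. The labelled tissue could not be checked against marker genes for the same reason. No sequences are printed, since none were among the files used here.

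Total counts per library ranged from 14600000 to 52700000 over the series. Levels are in CPM, the count as a standard rate relative to the library size scaled by the trimmed mean of M values (TMM), the scaling used in the fit, and are not corrected for transcript length. A pair of testes stood apart from their groups. Pre-spawning testis 1 resembled spawning testis 1 (Spearman correlation across features 0.903) more than it resembled the other pre-spawning testes (0.845 to 0.889), and spawning testis 1 likewise resembled it more than the other spawning testes (0.867 to 0.882). In seasons 2 and 3 the correlation of the spawning with the pre-spawning testis was 0.8 and 0.81. Among ovaries, pre-spawning ovary 3, spawning ovary 1 and spawning ovary 2 each had their closest library in the other stage.

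For 8 of 53536 features tested (0.0149%) the change at spawning differed between the gonads at an adjusted p under 0.05 (edgeR quasi-likelihood F-test, Benjamini-Hochberg over all features). In 6 of them (0.0112% of features tested) the testis change was higher than the ovary change, by 4.02 to 6.14 on the log2 scale, and in 2 (0.00374%) it was lower, by -4.41 to -4.07. All 8 also changed in testes on their own, where 1222 features passed (2.28%), 543 upward (1.01%) and 679 downward (1.27%). In ovaries 0 features passed (0%). At an unadjusted p under 0.05 there were 7638 features for the difference (14.3%, of which 5.62% positive and 8.64% negative). There were 11849 in testes (22.1%, with 9.92% higher and 12.2% lower at spawning) and 4482 in ovaries (8.37%, with 5.23% higher and 3.14% lower). A level of at least 10 CPM in the highest group, asked of features named here, was met by 38.1% of all features and by all 8 called ones. The difference is estimated from 4 groups and had a median standard error (SE) of 1.01 on the log2 scale, against 0.71 for the testis change and 0.7 for the ovary change.

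**Figure D1:**
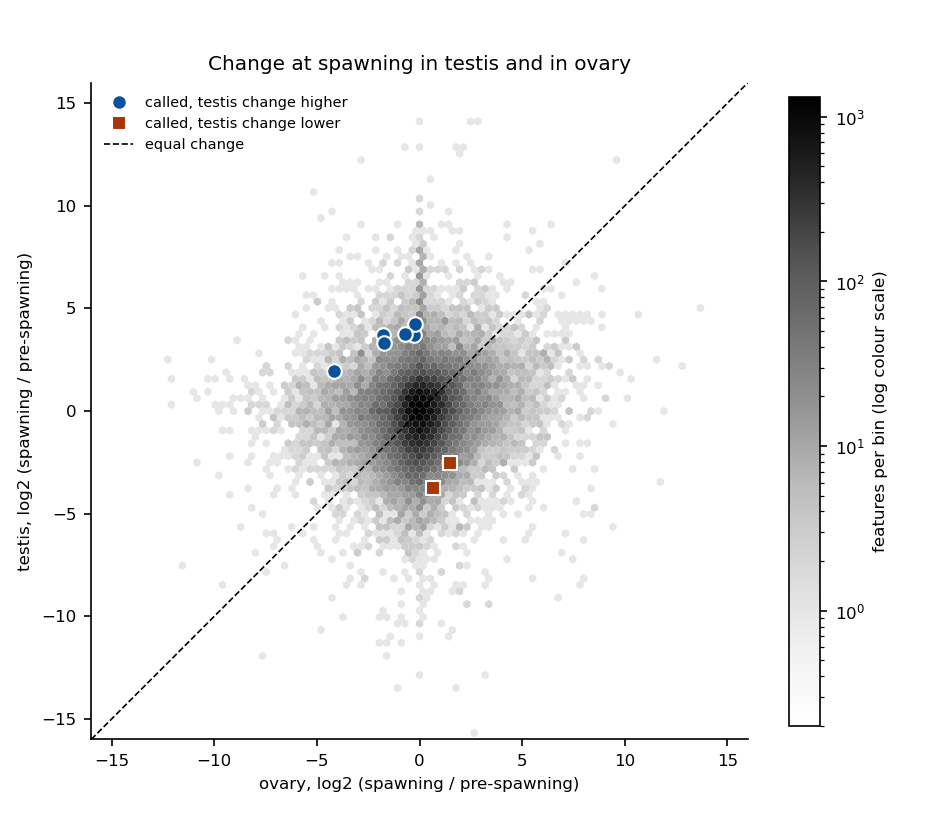
Change at spawning in testes (vertical axis, log2 of spawning over pre-spawning) against that in ovaries (horizontal axis) for the 53536 features tested, binned by number of features on a log colour scale. The 6 features whose testis change was higher lie above the dashed line of equal change and the 2 whose testis change was lower lie below it.

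These counts rest on the choice of libraries and of test. With season as a block no feature passed, with adjusted p of 0.0629 to 0.0862 for the 8 features (6799 of all at an unadjusted p under 0.05), and with the 12 pre-spawning and spawning libraries alone the count was also 0 (adjusted p 0.139 to 0.235 for the 8, 6861 unadjusted). DESeq2 called 1398 features, 707 higher and 691 lower, and edgeR without a low-count filter 2242, both lists with all 8 among them. The fit without the filter tested every feature with any count, so its 2242 is not a share of the 53536 features. Without pre-spawning testis 1 the count was 203 (143 higher, 60 lower, all 8 among them), without spawning testis 1 it was 65 and without post-spawning ovary 1 it was 17. It was 4 without spawning ovary 2 or pre-spawning ovary 1, and 1 without spawning testis 3, spawning ovary 1, pre-spawning ovary 3 or post-spawning ovary 3. It was 0 without spawning testis 2, pre-spawning testis 2 or 3, spawning ovary 3, pre-spawning ovary 2 or any single post-spawning testis, with 6072 to 8190 features at an unadjusted p under 0.05 in those fits. The post-spawning testes were the most alike of the 6 groups, with a median SD of 0.3 on the log2 CPM scale against 0.563 to 0.762 in the other 5. The library codes in the labels begin alike for these 3 testes, and likewise for post-spawning ovaries 2 and 3. Whether such libraries share a fish is not given, and their spread would then be partly technical. Without any 1 library the log2 differences were between 3.71 and 6.15 for the positive features other than cluster46565, between 5.49 and 8.16 for cluster46565, and between -4.75 and -3.86 for the 2 negative features.

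The features cluster8709 and cluster28089 rose in testes, and their ovary levels were lower at spawning, an ovary change that did not pass on its own. Spawning testes had 73.9, 224 and 202 CPM of cluster8709 and pre-spawning testes 16.5, 8.52 and 12.8, while spawning ovaries had 61.8, 115 and 22.5 CPM and pre-spawning ovaries 172, 295 and 212. All spawning testes were above all pre-spawning testes, and all spawning ovaries were below all pre-spawning ovaries. The log2 change was 3.72 (SE 0.57) in testes and -1.76 (SE 0.53, adjusted p = 0.537) in ovaries, a difference of 5.49 (SE 0.77, edgeR adjusted p = 0.027). By season the difference was 3.63, 6.05 and 7.2 on the log2(CPM + 0.1) scale. At spawning cluster8709 was higher in testis than in ovary (log2 testis over ovary 1.32, SE 0.52, adjusted p = 0.0471), and before spawning it was lower (-4.17, SE 0.58).

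The levels of cluster28089 followed the same course. They were 123, 376 and 332 CPM in spawning testes and 32.7, 22.4 and 26.8 in pre-spawning testes, and 103, 204 and 40.5 CPM in spawning ovaries and 291, 502 and 360 in pre-spawning ovaries. The stages did not overlap in either gonad. Its difference of changes was 5.07 (SE 0.75, edgeR adjusted p = 0.0309), made of 3.34 in testes and -1.73 (SE 0.52, adjusted p = 0.537) in ovaries. Over the 18 libraries its log2 level had a Pearson correlation of 0.997 with that of cluster8709, the feature most like it. After spawning cluster8709 averaged 60 ± 2.91 CPM in testes, and 63 ± 21.4 CPM in ovaries (SD, n = 3 each).

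The features cluster31811 and cluster19653 were near or above their ovary levels in spawning testes and far below them in pre-spawning and post-spawning testes. For cluster31811 spawning testes had 22.9, 54.7 and 55.6 CPM and pre-spawning testes 2.06, 2.85 and 2.18, against 9.51, 27 and 30.1 CPM in spawning ovaries and 33, 23.7 and 20.3 in pre-spawning ovaries. The testis groups were fully separate and the ovary groups overlapped. The log2 change was 4.23 (SE 0.51) in testes and -0.21 (SE 0.45, 95% interval -1.15 to 0.73) in ovaries, and the difference was 4.44 (SE 0.66, edgeR adjusted p = 0.0309). The log2 ratio of testis to ovary was 1 (SE 0.45, 95% interval 0.05 to 1.95, edgeR adjusted p = 0.0789) at spawning and -3.44 (SE 0.49) before it. Post-spawning testes were back at 1.65 ± 0.543 CPM (SD, n = 3), with post-spawning ovaries at 34.2 ± 12.4.

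For cluster19653 spawning testes had 12.8, 33.7 and 40.5 CPM and pre-spawning testes 1.75, 2.68 and 2.11, against 26.8, 24.9 and 22.6 CPM in spawning ovaries and 39.1, 24.1 and 27.6 in pre-spawning ovaries. Again the testes did not overlap and the ovaries did. The difference of changes was 4.02 (SE 0.57, edgeR adjusted p = 0.027), nearly all of it from the testis change of 3.73 (SE 0.43). The log2 ratio of testis to ovary was 0.23 (SE 0.38, adjusted p = 0.645) at spawning, and -3.79 (SE 0.43) before it. In post-spawning testes the level was 1.3 ± 0.41 CPM, and in post-spawning ovaries 31.8 ± 7.71 (SD, n = 3 each). The feature most like it over the 18 libraries was cluster31811, with a Pearson correlation of 0.967.

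The features cluster5349 and cluster46565 were higher in testes than in ovaries at spawning, by more than before it. Spawning testes had 167, 706 and 366 CPM of cluster5349 and pre-spawning testes 19.8, 30.1 and 41, against 10.8, 11 and 11 CPM in spawning ovaries and 27.3, 14.7 and 11.5 in pre-spawning ovaries. Every spawning testis lay above every pre-spawning testis, and the 3 spawning ovaries lay just below the lowest pre-spawning ovary. The log2 change was 3.77 (SE 0.5) in testes and -0.7 (SE 0.45, adjusted p = 0.69) in ovaries, a difference of 4.47 (SE 0.67, edgeR adjusted p = 0.0309). The log2 ratio of testis to ovary was 5.24 (SE 0.54) at spawning and 0.77 (SE 0.45, adjusted p = 0.178) before it. Post-spawning testes had 244 ± 5.29 CPM, and post-spawning ovaries 9.96 ± 2.7 (SD, n = 3 each).

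For cluster46565 spawning testes had 40.7, 75.5 and 63 CPM and pre-spawning testes 13.6, 11.5 and 21.1, a log2 change of 1.95 (SE 0.42). It was nearly absent from ovaries at this depth, with 1 count in the 3 spawning ovaries together and 22 in the 3 pre-spawning ovaries. The ratio of these counts, scaled for library size, was 0.0419, and its exact 95% interval of 0.00101 to 0.259 covers counting error only. The fitted log2 change in ovaries was -4.18 (SE 0.77, edgeR adjusted p = 0.42), so the larger part of the fitted difference came from these few ovary counts. The fitted difference of 6.14 (SE 0.87, edgeR adjusted p = 0.027) depends on the small count that edgeR adds to such values and is no bound. By season the difference was 2.96, 3.97 and 3.62 on the log2(CPM + 0.1) scale.

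In the other direction, cluster12404 was lower in spawning than in pre-spawning testes and stood higher in spawning than in pre-spawning ovaries. Spawning testes had 0.737, 0.544 and 1.06 CPM and pre-spawning testes 4.22, 5.38 and 4.2, while spawning ovaries had 15.6, 13.9 and 13.2 CPM and pre-spawning ovaries 5.23, 4.11 and 5.6. The stages were separate in both gonads and the spread within each group was small. The log2 change was -2.55 (SE 0.37) in testes and 1.51 (SE 0.35, adjusted p = 0.537) in ovaries, and the difference of -4.07 (SE 0.51, edgeR adjusted p = 0.02) had the smallest adjusted p of all features. The log2 ratio of testis to ovary was -4.18 (SE 0.39) at spawning and -0.11 (95% interval -0.84 to 0.61) before it.

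The feature cluster24689 fell in testes. It stood at 3.28, 1.72 and 2.39 CPM in spawning testes and 11.2, 35.1 and 54.5 in pre-spawning testes. Spawning ovaries had 29, 16.3 and 17.4 CPM and pre-spawning ovaries 9.26, 14.1 and 16.9, so that the ovary groups overlapped. The difference was -4.41 (SE 0.69, edgeR adjusted p = 0.0473), with -3.77 (SE 0.52) from testes and 0.64 (SE 0.47) from ovaries. Under the relative log expression (RLE) scaling of edgeR its adjusted p was 0.0546. Testis lay below ovary at spawning (log2 testis over ovary -3.08, SE 0.51) and above it before spawning (1.33, SE 0.47, adjusted p = 0.0341).

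**Figure D2:**
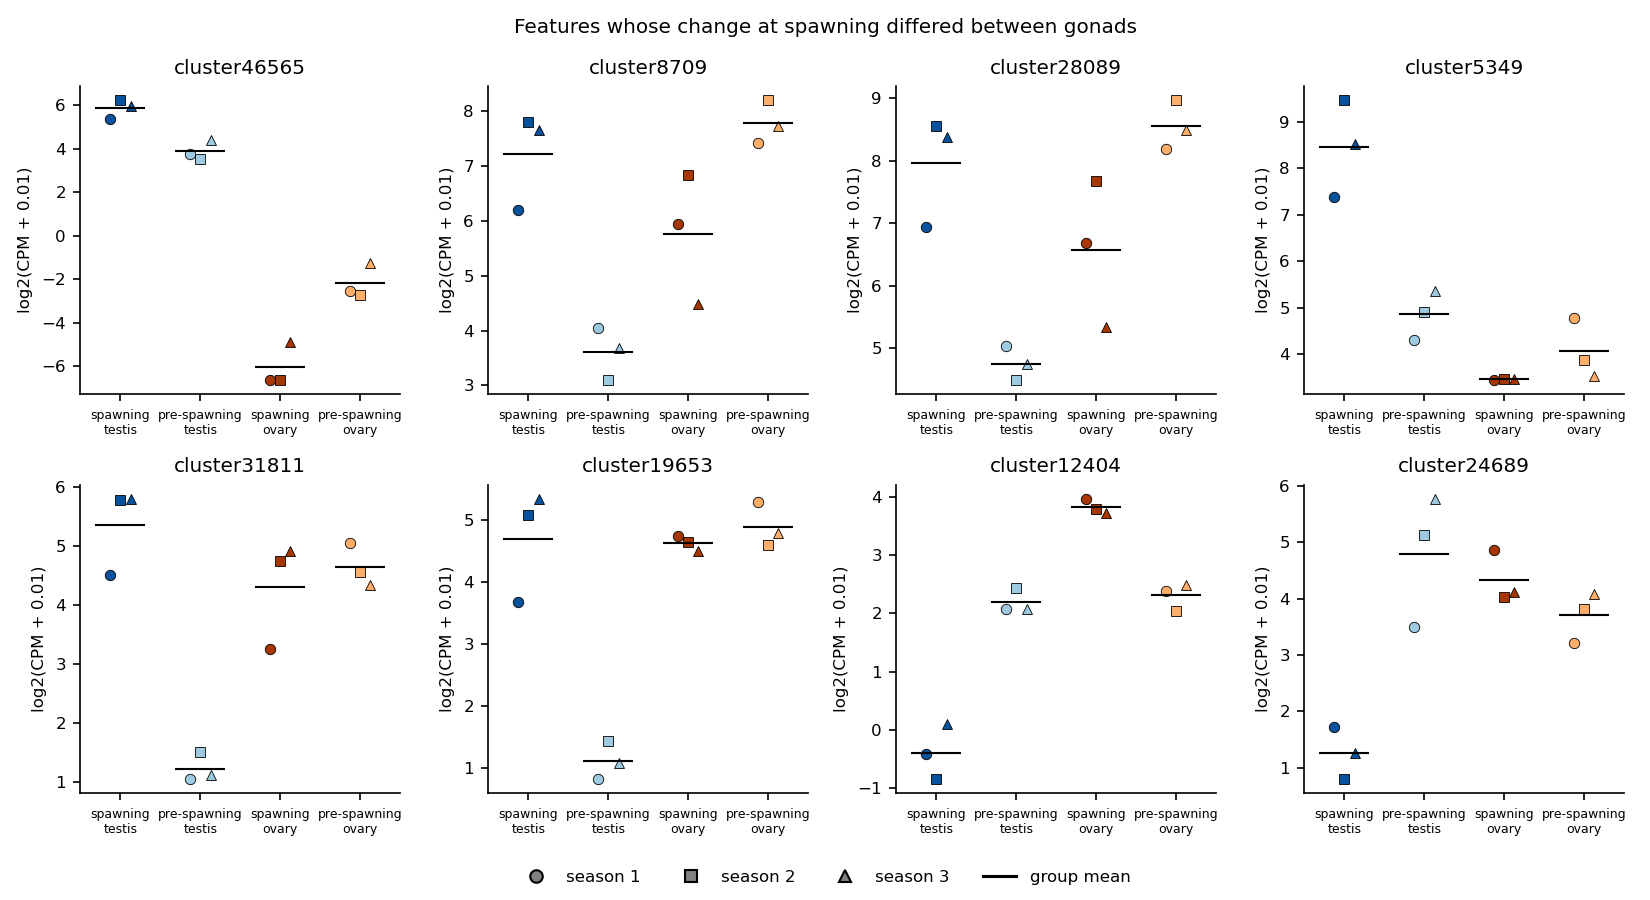
Levels of the 8 features as log2(CPM + 0.01) in the 4 groups of 3 libraries, with the season of each library given by its symbol and the mean of the plotted values as a bar. In all 8 panels the spawning testes are separate from the pre-spawning testes, and in 5 the ovary stages are separate as well.

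In 5 of the 8 features the fitted difference between gonads had opposite signs at spawning and before it, and in 3 it was wider at spawning. Of those 5, cluster8709 and cluster24689 passed the test between gonads at both stages, whereas the spawning ratio of cluster28089 (adjusted p = 0.0533), cluster31811 (0.0789) and cluster19653 (0.645) did not pass. The spawning and pre-spawning testes did not overlap in any of the 8, where the share over all features tested was 25.6%. The ovary stages did not overlap in 5, against 12.3% of all features. In 5 of the 8 the stages overlapped in neither gonad, where that share was 3.01%. The per-season difference had 1 sign in all 3 seasons in each of the 8, against 34.8% of all features. These shares describe the features and add no support, since the test that chose them used the same libraries.

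A further 3 features with at least 10 CPM in a group came next in the negative direction without passing. Spawning testes had 0.179, 0.315 and 0.177 CPM of cluster24086 and pre-spawning testes 1.33, 0.925 and 1.2, whereas spawning ovaries had 149, 110 and 221 CPM and pre-spawning ovaries 70.8, 66.5 and 66.8. The stages were separate in both gonads, in opposite directions, with a difference of -3.6 (SE 0.63, edgeR adjusted p = 0.0949). The feature cluster24179 had the same form at lower contrast, with 3.88 ± 1.07 CPM in spawning and 16.7 ± 3.33 in pre-spawning testes and 83.9 ± 32.7 in spawning and 43.3 ± 8.51 in pre-spawning ovaries (SD, n = 3 each, difference -3.06, adjusted p = 0.0971). The testes fell to 2.18 ± 0.67 CPM of cluster67210 at spawning, against 13.9 ± 4.53 before it, and ovaries had 43.3 ± 8.71 CPM at spawning and 46.2 ± 2.73 before it (SD, n = 3 each). Its difference was -2.58 (SE 0.46, adjusted p = 0.0949). Without pre-spawning testis 1, the removal that gave 203 called features, all 3 passed, with edgeR adjusted p of 0.042 to 0.0477. Over all removals of 1 library the differences ranged from -3.9 to -3.21 for cluster24086. They ranged from -3.28 to -2.63 for cluster24179 and from -2.83 to -2.36 for cluster67210. The spawning testes held only 8, 11 and 8 counts of cluster24086.

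Transcripts whose identifiers share a stem, the part before the transcript suffix, can belong to more than 1 feature, so reads of a gene could be divided between features. Of the 8 features, 4 had such partners, 10 in all that were tested. The difference had the same, positive sign in 10 of 10 partners, where 47.6% of all features were positive. At an unadjusted p under 0.05 there were 8 of 10, where 14.3% of all features lay. By the test 7 of 10 rose in testes, where 1.01% of all features rose, and 0 were called for the difference. The partner of cluster28089, cluster41794, averaged 103 CPM in spawning and 12.6 in pre-spawning testes, and 51.7 CPM in spawning and 172 in pre-spawning ovaries, with a difference of 4.76 (SE 0.77, edgeR adjusted p = 0.0517). Its log2 level had a correlation of 0.99 with that of cluster28089 over the 18 libraries. For cluster31811 the partners cluster62723 and cluster55101 had differences of 3.89 (SE 0.78) and 4.31 (SE 1.2), and for cluster19653 the partners cluster69544 and cluster70652 had 3.24 and 3.35 (SE 0.79 each). Of 5 partners of cluster5349, cluster3701, cluster3876 and cluster11516 had differences of 3.52, 3.6 and 3.8, and cluster13612 and cluster74663 had 0.24 and 0.74 with SEs of 1.44 and 1.69. Partners are not independent of the called feature if reads were divided among them, which was not tested. A feature can also join transcripts of several stems, with 5 stems in cluster8709, 4 in cluster5349, 3 in cluster12404 and 2 in cluster19653. The other called features held 1 stem each. Whether a called feature is a single gene is therefore not known.

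The called features also differed in how many others varied like them. On the log2(CPM + 0.1) scale over all 18 libraries, 1214 features had a Pearson correlation of at least 0.9 with cluster46565 and 415 with cluster5349. These are the 2 called features in the testis class defined below. The number was 73 for cluster12404, 7 for cluster24689, 6 for cluster19653, 3 for cluster8709 and 2 each for cluster28089 and cluster31811. The points share gonad and stage, so these counts are descriptions only.

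The median ovary change was near 0 among features that changed in testes at spawning, though some had ovary changes of at least 2-fold. It was also near 0 over all features tested, at 0.02 with the middle 50% between -0.47 and 0.61, so this is not particular to them. The 543 features that rose in testes had a median log2 change of 3.21 there and of 0.18 in ovaries, with the middle 50% of ovary changes between -0.27 and 0.66. The ovary change had the same sign in 304 of them (56%), where 50.9% of all features were above 0 in ovaries. The 679 features that fell in testes had a median of -2.76 there and -0.06 in ovaries (middle 50% from -0.46 to 0.28), with 374 (55.1%) of the same sign. An ovary change of at least 2-fold in the same direction was seen in 90 of the risen and 56 of the fallen features, and in the opposite direction in 54 and 31. The share of all features with such an ovary change was not taken, so these counts cannot be set against a background. At an unadjusted edgeR p under 0.05, the ovary change had the same direction in 37 of the 543 risen and 20 of the 679 fallen features. It was opposite in 14 and 16. Over all features, 5.23% were higher and 3.14% lower in ovaries at that threshold, and the counts were not tested against these shares. The difference had an unadjusted edgeR p under 0.05 in 402 of the 543 risen and 624 of the 679 fallen features, against 14.3% of all features. These 2 counts use the same testis libraries as the testis change, so they add no support. No feature passed in both gonads, so none could be named as changed in common or in opposite directions by both tests.

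The testis count of 1222 varied with the libraries. It was 3503 without pre-spawning testis 1 and 2121 without post-spawning ovary 1. It was 29 and 54 without pre-spawning testis 2 and 3, 57 and 407 without spawning testis 2 and 3, and 378, 447 and 211 without post-spawning testis 1, 2 and 3. Without spawning ovary 1 it was 695, and without pre-spawning ovary 1, 2 and 3 it was 751, 769 and 595. It was 280 with season as a block, 3 in the 12 libraries alone and 5726 by DESeq2. DESeq2 called 309 features in ovaries, 143 higher and 166 lower at spawning.

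Classes of features by gonad were taken from the post-spawning libraries, which are not part of the contrast. The testis class held 2249 features with a mean of at least 1 CPM in post-spawning testes and at least 16 times the mean of post-spawning ovaries, and the ovary class 2897 by the mirrored rule. The shared class held 33213 features with at least 1 CPM in either gonad, and 15177 were low in both. In the testis class the median log2 difference was 1.2, with 71% above 0, against -0.08 and 47.6% over all features. The median change of the class was 1.29 in testes and 0 in ovaries. In the testis class 183 features rose in testes (8.14%, against 1.01% of all features) and 3 fell (0.133%, against 1.27%). For the difference 2 were called (0.0889%, against 0.0149%), cluster46565 and cluster5349. A class taken from post-spawning testes favours features that are high in testes at or after spawning, so its direction in testes is partly set by this choice. The class also asks for low levels in post-spawning ovaries relative to testes. Its features together took 0.151% of counts in spawning and 0.123% in pre-spawning ovaries, so its ovary changes rest on low levels.

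The testis-class shift was large in seasons 2 and 3 alone. The median per-season difference, on the log2(CPM + 0.1) scale, was 0.01 in season 1, 1.93 in season 2 and 1.8 in season 3. Season 1 is that of the pair of testes that resembled each other. Without pre-spawning testis 1 the median was 2.26, and over all removals of 1 library it ranged from 0.98 to 2.26. The ovary class had a median difference of -0.17, and its median changes, each taken separately, were -0.4 in testes and -0.36 in ovaries. In testes 13 of its features rose (0.449%, against 1.01% of all features) and 71 fell (2.45%, against 1.27%). The ovary class asks for low levels in post-spawning testes relative to ovaries, so its direction in testes is partly set by this choice as well. Its called features were cluster31811 and cluster19653 (0.069%, against 0.0149%). The shared class had a median of -0.05 with 2 features called in each direction, and the low class a median of -0.4 with none called. Under RLE scaling the median over all features was 0.08 in place of -0.08, and the testis class stood at 1.35 and the shared class at 0.11. Of features with an unadjusted p under 0.05, 3011 were positive and 4627 negative under TMM, and 3852 and 3819 under RLE, so the larger side depends on the scaling. Of the called features, RLE gave 6 positive and 1 negative.

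**Figure D3:**
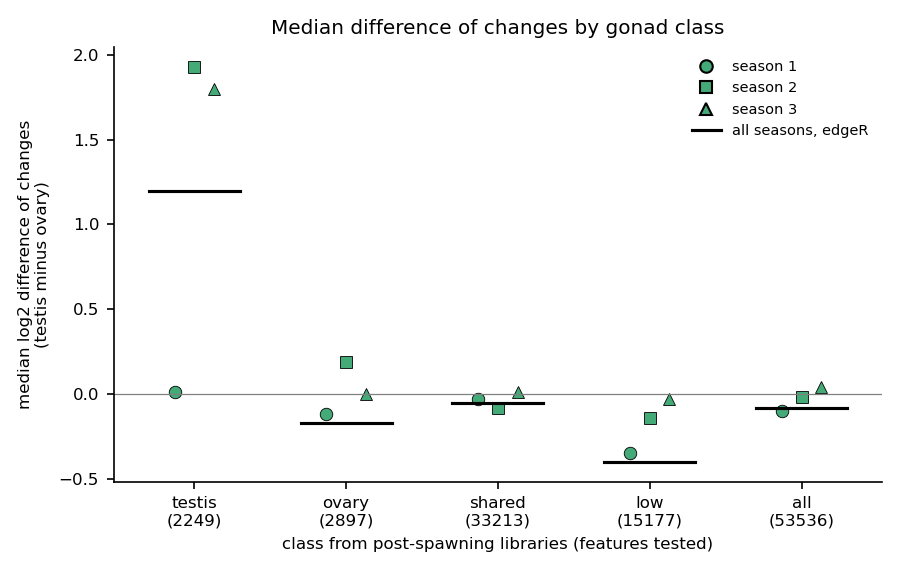
Median difference of changes (testis minus ovary, log2) for features grouped by their gonad class in post-spawning libraries, with a symbol for each season and a bar for the estimate over all seasons. The testis class lies at 1.93 and 1.8 in seasons 2 and 3 and at 0.01 in season 1, and the other classes lie between -0.4 and 0.19.

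As shares of whole libraries, testis-class features took 4.33%, 7.91% and 6.33% of counts in spawning testes and 4.03%, 2.35% and 1.82% in pre-spawning testes, so that the stages did not overlap. In ovaries they took 0.151% ± 0.014 at spawning and 0.123% ± 0.00716 before it (SD, n = 3 each). The difference of changes was 3.43 percentage points (two-sided exact permutation test of stage within gonad, p = 0.1, Benjamini-Hochberg adjusted p = 0.22 over 4 measures). The number of arrangements allows a p of 0.005, but these ovary values do not. The ovary stages were also separate, with a change of 0.0279 points in the same direction, so no relabelling of ovaries could lower the difference. This p could therefore not fall below 0.1 however large the rise in testes, and it cannot decide whether the changes differed. By season it was 0.273, 5.53 and 4.5 points. Ovary-class features took 0.394% ± 0.112 of counts in spawning and 0.766% ± 0.11 in pre-spawning testes (SD, n = 3 each). In ovaries they took 17.4%, 26.2% and 19% at spawning and 24.8%, 33% and 30.2% before it, lower at spawning in all 3 seasons although the groups overlapped. The difference of changes was 8.11 points (exact permutation p = 0.2, adjusted p = 0.267), and 7.16, 6.35 and 10.8 points by season. Here the testis stages were separate and changed in the same direction as the ovaries, so this p could not fall below 0.1 either. On the log2 scale of the shares, chosen after seeing the data, the direction was the opposite, with a change of -0.98 in testes and -0.51 in ovaries and a difference of -0.48 (exact permutation p = 0.405). For the testis class the log2 difference was 0.93 (exact permutation p = 0.21), and -0.19, 1.34 and 1.64 by season.

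The concentration of counts and the number of features also did not pass. The 100 most abundant features of each library took 29% ± 6 of counts in spawning and 21.9% ± 2.77 in pre-spawning testes, and 22% ± 5.81 in spawning and 19.1% ± 0.49 in pre-spawning ovaries (SD, n = 3 each). The difference of 4.21 points (exact permutation p = 0.51) was made of 0.0589, 18.7 and -6.1 points by season. It was 0.856 points without spawning testis 2, 1.01 without spawning ovary 2, 6.63 without spawning testis 1 and 6.69 without spawning ovary 3. At equal depth, 63071 ± 1503 features were detected in spawning and 67654 ± 4797 in pre-spawning testes, and 56033 ± 1402 in spawning and 55828 ± 269 in pre-spawning ovaries (SD, n = 3 each). The difference of -4789 features (exact permutation p = 0.11, adjusted p = 0.22) rested largely on pre-spawning testis 1, which held 73191, and was -2021 without that library. Without spawning ovary 3 it was -5483 (unadjusted exact permutation p = 0.02).

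**Figure D4:**
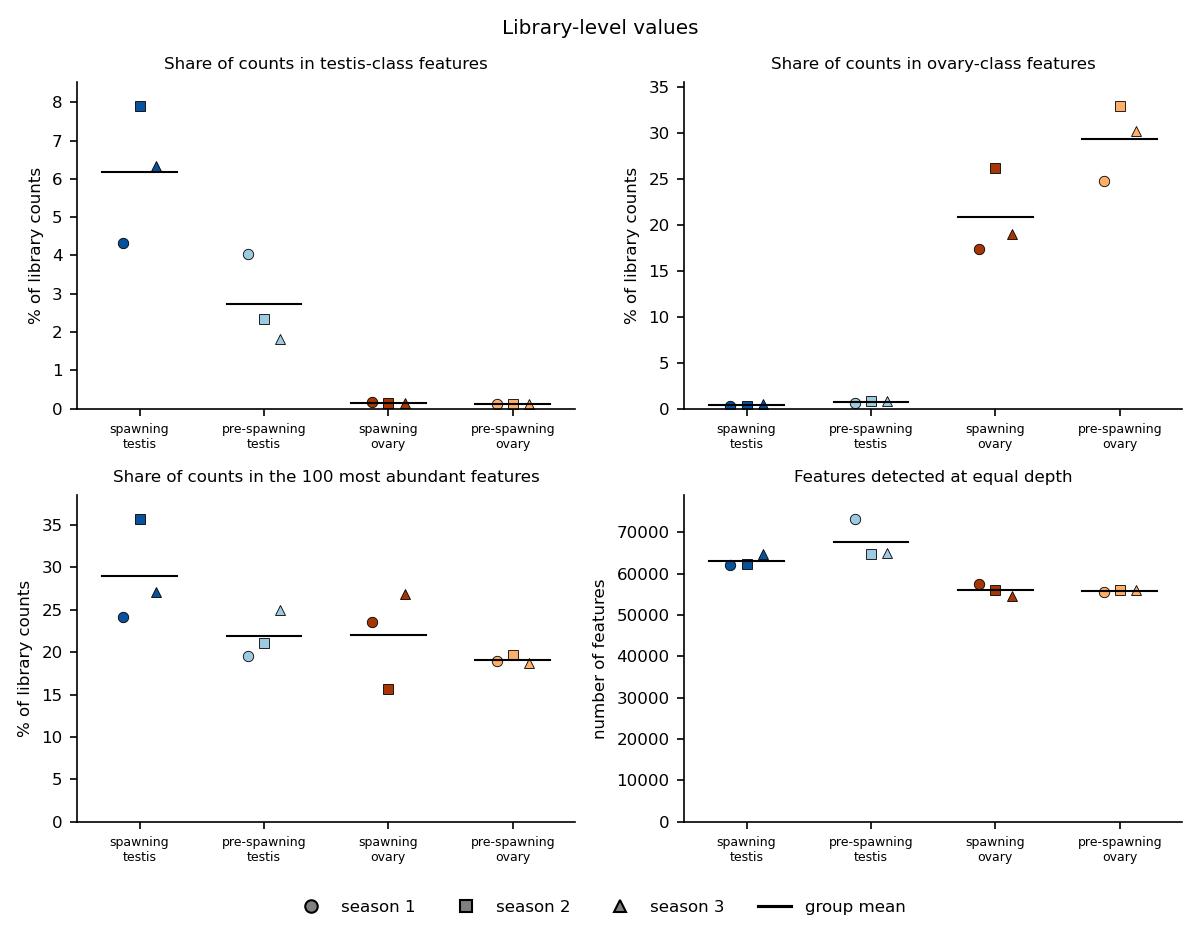
Library-level values in the 4 groups of 3 libraries: percent of counts in testis-class and ovary-class features and in the 100 most abundant features, and number of features detected after thinning to equal depth. Symbols give the season and bars the group mean. The testis-class share is 4.33% in spawning testis 1 and 4.03% in pre-spawning testis 1, and the ovary-class share is lower at spawning than before it in each season.

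The features with the largest differences of changes in CPM were abundant ones that varied widely between libraries of 1 group. On the side of testes these were cluster18, cluster2034 and cluster13781. The feature cluster13781 stood at 1850, 31300 and 6480 CPM in spawning testes and 21, 15.1 and 50.5 in pre-spawning testes, a log2 change of 8.84 (SE 1.53, edgeR adjusted p = 0.0173). In ovaries it had 134 counts in the 3 spawning and 145 in the 3 pre-spawning libraries, or 1.33 ± 1.1 and 1.66 ± 1.85 CPM (SD, n = 3 each). The difference of 9.15 (SE 1.8, adjusted p = 0.108) did not pass. Spawning ovary 2 held 2 counts of it and pre-spawning ovary 3 held 4, so depth limits these ovary levels. In post-spawning testes it was at 1540 ± 246 CPM (SD, n = 3). The large cluster cluster18, of 78 transcripts, had 8340, 44700 and 15400 CPM in spawning and 7730, 7470 and 2800 in pre-spawning testes, and cluster2034, of 12 transcripts, 9420, 27700 and 17800 in spawning and 6930, 1740 and 2930 in pre-spawning testes. Their differences were 1.15 (SE 1.04, adjusted p = 0.637) and 0.57 (SE 1.13, adjusted p = 0.86). Without any 1 library they ranged from 0.21 (without spawning testis 2) to 1.59 and from 0.05 (without spawning ovary 2) to 1.47, both highest without spawning ovary 3.

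On the side of ovaries the leading features were the single transcripts cluster61036, cluster32980 and cluster69527. Spawning testes had 8170, 29900 and 15500 CPM of cluster61036 and pre-spawning testes 6070, 6280 and 7580, against 31000, 4170 and 51000 CPM in spawning ovaries and 8810, 2050 and 5920 in pre-spawning ovaries. Within each season the spawning ovary was above the pre-spawning ovary, and season 2 was the lowest at both stages of the ovary. The log2 change was 1.43 (SE 0.83, adjusted p = 0.326) in testes and 2.36 (SE 0.86, adjusted p = 0.549) in ovaries, and the difference was -0.93 (SE 1.16, 95% interval -3.38 to 1.52). The feature cluster32980 had a difference of -0.79 (SE 1.2, adjusted p = 0.804) with the same order of libraries in ovaries. For cluster69527 the difference in CPM was negative (-8250 CPM) and the log2 difference positive, at 0.67 (SE 1.43, 95% interval -2.34 to 3.69). Its spawning testes averaged 6150 ± 6890 CPM and its pre-spawning testes 427 ± 363, with 15700 ± 12400 CPM in spawning and 1740 ± 1200 in pre-spawning ovaries (SD, n = 3 each). In all 3, spawning testis 2 lay above spawning testes 1 and 3, and spawning ovary 2 below spawning ovaries 1 and 3, and the difference was -1.39, -1.85 and -3.25 in season 1, 1.23, 1.75 and 3.55 in season 2, and -2.07, -1.84 and 1.01 in season 3. Without spawning ovary 3 the fitted difference was -0.15 for cluster61036 and -0.04 for cluster32980, and without spawning testis 2 it was -1.52 and -1.56.

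**Figure D5:**
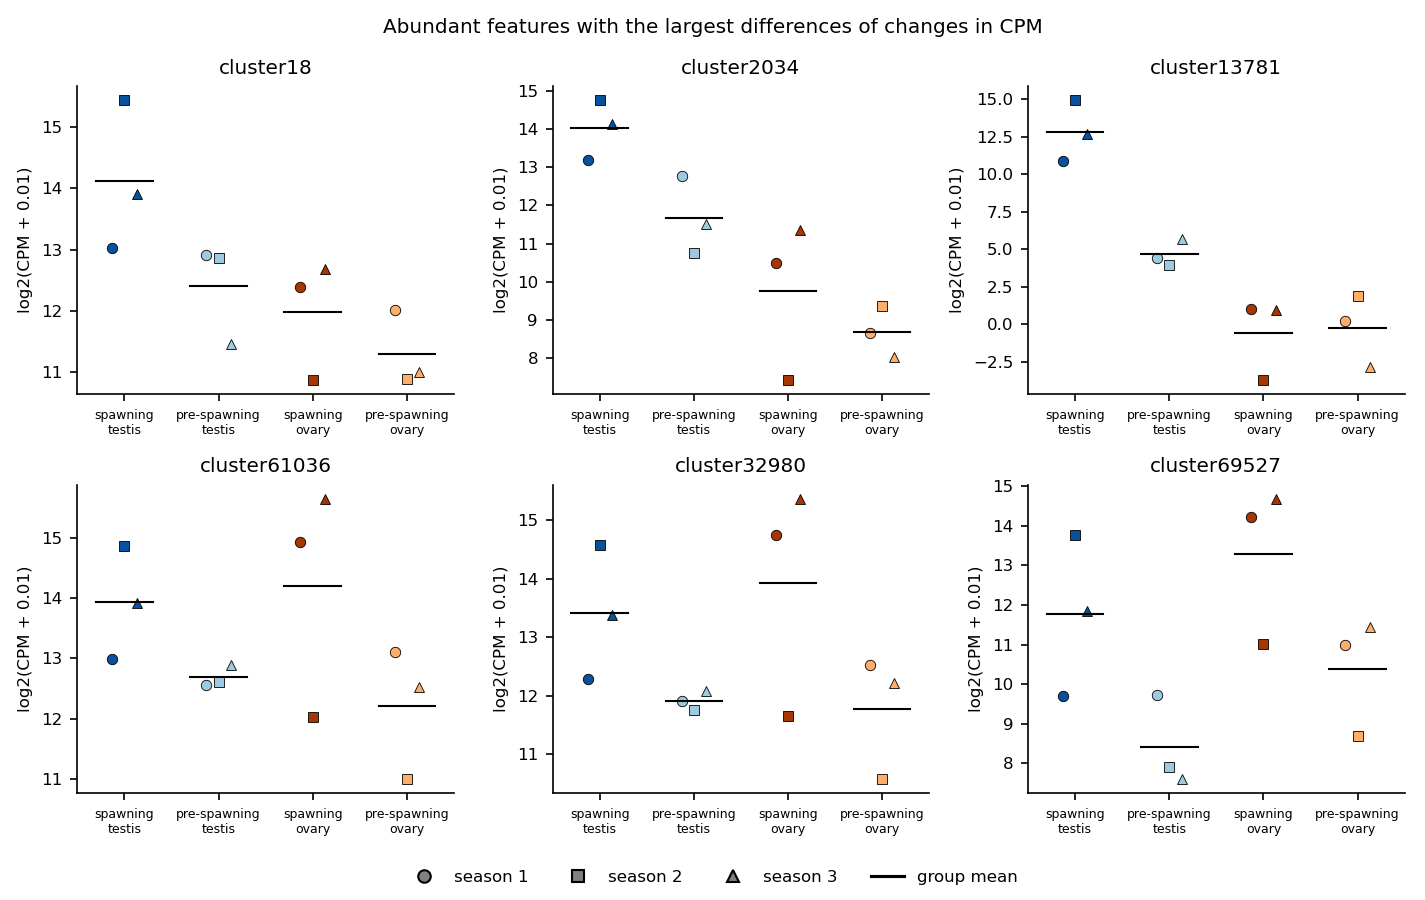
Levels of the 6 abundant features as log2(CPM + 0.01) in the 4 groups of 3 libraries, with the season of each library given by its symbol and the mean of the plotted values as a bar. The spawning testes of cluster13781 lie far above its other groups, and the spawning ovaries of cluster61036, cluster32980 and cluster69527 are divided into seasons 1 and 3 above season 2.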

How the data were processed

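RNA of 18 gonad libraries was measured after extraction with Trizol and removal of ribosomal RNA, per the labels' protocols. The values the authors deposited are whole-number counts for 135031 features, with a map to them from 251830 transcripts. The submitters' processing notes name fastp and Salmon without versions. How the transcriptome was built and clustered, and whether Salmon's estimates were rounded, is not given in the sources used here.

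Columns were matched to samples by library name. One edgeR 4.0.16 fit (R 4.3.3; TMM, filterByExpr, glmQLFit and glmQLFTest, robust=FALSE) with 6 group means over all 18 libraries gave the testis change, the ovary change and their difference, with Benjamini-Hochberg adjustment over 53536 features and a threshold of 0.05. The SE was taken from the F statistic. The common biological coefficient of variation was 63.3%. The fit was tested on simulated data. Library-level values used exact permutation of the stage within each gonad (400 arrangements), after thinning to 14604277 counts where features were counted. DESeq2 1.42.0, other scalings and filters, other sets of libraries and a block on season were alternatives. The removal of the post-spawning testes was chosen after seeing the data.

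TMM factors were 0.755 to 0.993 in spawning and 1.29 to 1.45 in pre-spawning testes, which raises fitted testis changes relative to plain CPM. Replicates of a group differed by more than sampling noise (lowest chi-square per degree of freedom 23.6). The labels give the replicate number as a season batch, which pairs libraries. Deviations of same-season libraries were correlated above 0.1 in 1 of 18 pairs (range -0.169 to 0.15). That pair was spawning testis 1 with pre-spawning testis 1, both in the testis arm of the contrast.

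Named features were the called ones with at least 10 CPM in a group (up to 8 per direction, or the first 5 by p where fewer than 5 passed) and the 3 with the largest CPM difference each way. The comparison and the lists were chosen with earlier results of these data known. Counting intervals cover counting error only. Lists of marker genes could not be applied without gene names.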

Additional observations from a re-analysis of the deposited data

Results flagged for a closer look

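The stage change differed between the gonads by the test of the difference itself in 8 features. The log2 difference of changes was 6.14 in cluster46565, 5.49 in cluster8709, 5.07 in cluster28089, 4.47 in cluster5349, 4.44 in cluster31811 and 4.02 in cluster19653. It was -4.07 in cluster12404 and -4.41 in cluster24689. None of the 4 library-level measures passed its permutation test. For the testis-class and ovary-class shares that test could not give a p under 0.1, whatever the size of the change in their own gonad. Single outlying libraries were not tested for in groups of 3.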

How the results depend on the processing

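For the difference between gonads the count was 8, with 0 under a replicate block on season, 0 in the 12 libraries alone and 0 in 15 libraries without the post-spawning testes (edgeR, 6799, 6861 and 5898 at an unadjusted p under 0.05), 1398 by DESeq2 and 2242 with no low-count filter, and from 0 to 203 without any 1 library. For testes the count was 280 under the block, 3 in the 12 libraries, 72 in 15 libraries, 5726 by DESeq2 and 4315 with no filter, and from 29 to 3503 without any 1 library. For ovaries it was 309 by DESeq2 and 1584 with no filter, and 0 or 1 without any 1 library. The fits with no filter tested every feature with any count, a larger set than the main fit. The season block thus lowered the testis count, from 1222 to 280, as well as the count for the difference. The cause was not tested.

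The class medians of the log2 difference moved for shared features, to 0.11 under RLE and DESeq2 and 0.08 in the 12 or 15 libraries, and by DESeq2 to -0.01 in the ovary class and -0.21 in the low class. Without any 1 library they ranged from 0.98 to 2.26 in the testis class, from -0.41 to 0.04 in the ovary class, from -0.15 to 0.11 in the shared class and from -0.6 to -0.14 in the low class. At a class ratio of 64 the called features numbered 1 in the testis class, 0 in the ovary class and 7 in the shared class, and the ovary-class median was 0.27. The change in the share of the most abundant features was -0.355 points for 10 features, the opposite sign, and from 0.856 to 6.69 points for 100 features without any 1 library. The difference in detected features ranged from -6244 to -2021 without any 1 library. Among named features only cluster69527 turned sign, to -0.77 without spawning testis 2 (range over single removals -0.77 to 1.72). For the share of the ovary class the log2 scale, chosen after seeing the data, gave -0.478, the opposite sign. Depth limited the ovary levels of cluster46565, at 0 or 1 count per spawning library, and of cluster13781, at 2 counts in spawning ovary 2. Counts were also low for cluster24086 in spawning testes, at 8, 11 and 8.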
